A study of Canis lupus familiaris with 51 samples.

Results

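The genes described here are 10 receptor tyrosine kinases that kinase inhibitors can act on besides KIT, namely PDGFRA, PDGFRB, FLT3, MET, EGFR, ERBB2, ERBB3, FGFR1, IGF1R and AXL. They were chosen by name, and every array probe that the scanner files assign to one of them was used, which gave 19 probes of the 43603 on the array. PDGFRA, FLT3, ERBB2 and FGFR1 had 1 probe each. PDGFRB, MET, IGF1R and AXL had 2, ERBB3 had 3 and EGFR had 4. Where a gene had several probes, the one with the highest mean level over all arrays stands for the gene and is called its main probe, and the others are given beside it.

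A receptor tyrosine kinase is a membrane protein whose outer part binds a growth factor and whose inner part is an enzyme that phosphorylates tyrosines once receptors pair up. The phosphorylated tails recruit adaptor proteins that switch on the RAS and PI3K pathways, and so drive division, survival and movement. KIT, the receptor for stem cell factor, is the receptor that mast cells depend on, and it is often mutated in canine mast cell tumors (MCTs). PDGFRA, PDGFRB and FLT3 belong to the same structural family as KIT, and small molecules that block KIT often block them too. The other receptors belong to separate families, each with inhibitors of its own.

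The samples were 51 cutaneous MCTs of pet dogs, a tumor of skin mast cells, taken from the centre of the mass at surgery or diagnosis, with 1 tumor per array. As reference samples the study took 13 MCTs it called differentiated (low histological grade and few mitoses) and 5 it called undifferentiated (high grade). The other 33 tumors were called unknown, and the study placed 7 of them with the undifferentiated and 26 with the differentiated class by a panel of marker transcripts chosen on these same arrays. None of the 10 receptors is on that panel, but a class given by expression is not independent of expression. The dogs were 3 to 14 years old, 19 labeled male, 30 labeled female and 2 without a sex, of several breeds (9 Boxers, 9 Labrador Retrievers, 14 crossbred dogs and the rest of other or no given breed), and treatment after sampling was not used here. The GEO labels give tumor names, sex, breed and age but no class, so the classes were joined by tumor name from the paper. Those of the 33 unknown tumors were read from its class prediction plot, since no table gives them. Some labels carry a suffix that the paper's reference names lack, as in T9.1 and T57.1, and these were taken as the same tumors. The reference tumor LM0 was matched to its class by elimination.

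The brightness of a probe, its signal, measures how much of the matching RNA the biopsy held. Levels are log2 signals after quantile normalization over the 51 arrays, so a step of 1 is 2-fold, and they can be compared between tumors for the same probe but not between probes. Between 59.4% and 74.8% of spots per array were well above background, with a median of 68.7%, and the numbers of arrays limit the precision of every value. All pairs of arrays correlated at 0.907 to 0.988 over the probes. The mast cell label held: of the 8 measured mast cell markers, 7, among them the high-affinity IgE receptor genes FCER1A and MS4A2 and the chymase gene CMA1, were well above background on all 51 arrays. A lower level in a biopsy can mean fewer cells of a type or less RNA per cell, and these cannot be told apart in bulk samples.

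All 10 receptors gave a signal in these tumors. The main probes of PDGFRA, PDGFRB, MET, EGFR, ERBB2, IGF1R and AXL were well above background on all 51 arrays, FGFR1 on 50, FLT3 on 49 and ERBB3 on 36. They differed in how much they varied among tumors. ERBB2 varied least, with a standard deviation of 0.32 on the log2 scale and a 3.42-fold range. ERBB3 had the highest standard deviation, 1.60, but its low values, down to 1.81 in LM0, are those of arrays where it was not well above background, so its spread is not well measured. FLT3 (standard deviation 1.08), EGFR (0.95), PDGFRA (0.92), FGFR1 (0.83), MET (0.78), PDGFRB (0.73), IGF1R (0.66) and AXL (0.44) lay between, with the lowest levels of FLT3 and FGFR1 likewise not well above background. KIT, given for comparison, had a standard deviation of 1.04. No tumor had ERBB2 at 2-fold its median or more, the highest being T51 at 1.92-fold. For ERBB3, 14 tumors were at 4-fold its median or more. That median, 4.79, lies near the levels at which the probe was not well above background, so these folds are uncertain. PDGFRB and FLT3 reached 4-fold in 1 tumor each. The remaining 7 receptors stayed under 4-fold in every tumor.

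**Figure D1:**
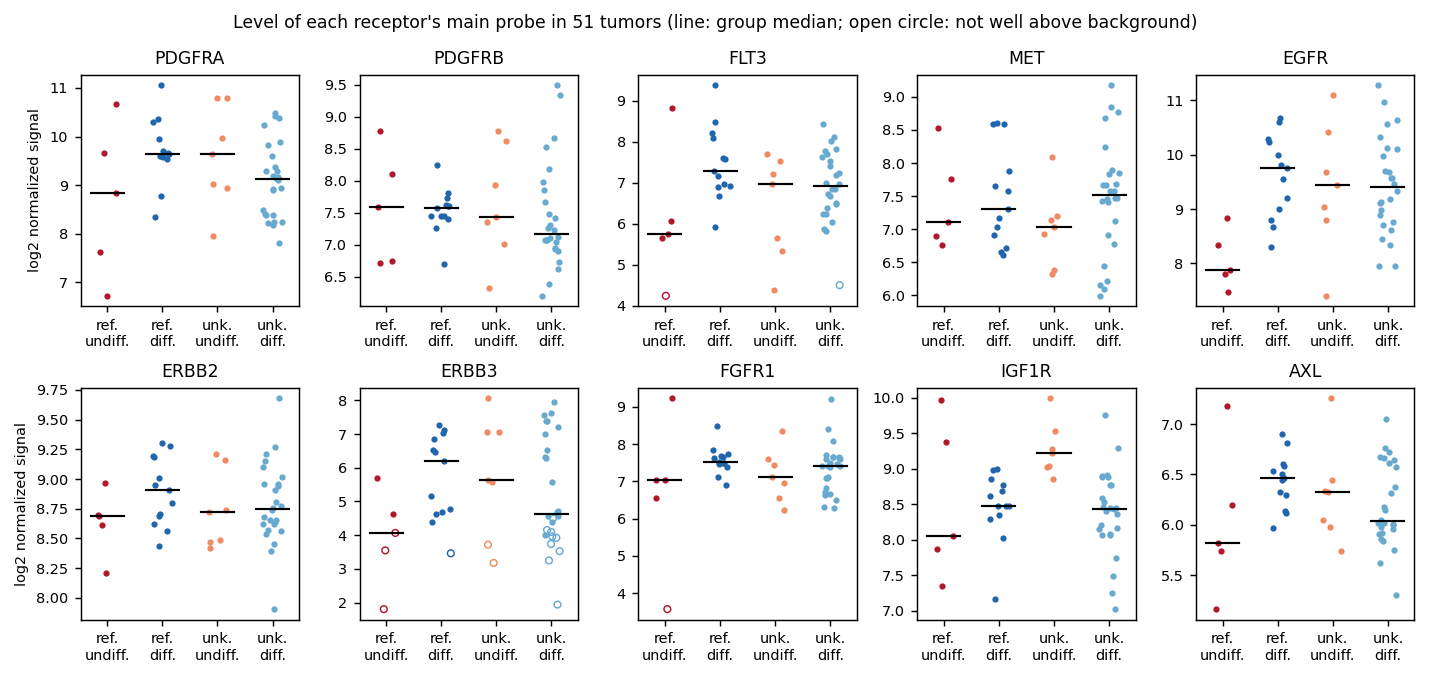
Log2 normalized signal of the main probe of each of the 10 receptors in the 51 tumors, by class (5 reference undifferentiated, 13 reference differentiated, 7 unknown undifferentiated, 26 unknown differentiated). Each point is a tumor, lines are group medians and open circles mark tumors where the probe was not well above background. The axes differ between panels, and the groups overlap in every panel.

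The probes are 60 bases long, and the sequences that carry the results are shown here. The 4 EGFR probes are given because they gave different answers, in the order in which the files place them along the gene on canine chromosome 18, plus strand. The genome build is not given in the sources used here. The first lies at chr18:8991547-8992723, the second at chr18:9002852-9008650, the third at chr18:9024218-9024277 and the last, the main probe, at chr18:9028083-9028142. The first and second positions cover 1177 and 5799 bases, longer than the probes, so each probe matches separate blocks of the genome. Each of the 4 sequences can be read without a stop codon in 1 of the 3 frames. No base is in capitals in the first, second and last.
EGFR A_11_P0000021478: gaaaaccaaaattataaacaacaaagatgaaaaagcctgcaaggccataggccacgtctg
EGFR A_11_P000002178: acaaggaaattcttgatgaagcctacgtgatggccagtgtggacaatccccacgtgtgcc
EGFR A_11_P0000027549: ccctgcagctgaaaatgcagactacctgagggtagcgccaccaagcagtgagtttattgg
The third EGFR probe resembles an ERBB3 probe at chr10:3402836-3402895, plus strand. Both are printed with the bases that are identical between them in capitals, after a shift of 3 bases, and these are 33 of 57 aligned bases (57.9%).
EGFR A_11_P072691: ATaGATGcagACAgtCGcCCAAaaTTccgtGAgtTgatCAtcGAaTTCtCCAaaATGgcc
ERBB3 A_11_P088431: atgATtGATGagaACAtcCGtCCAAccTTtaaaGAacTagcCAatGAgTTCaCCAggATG

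A second pair of probes shows what the kinases share. The second PDGFRB probe, at chr4:62160460-62160519, and the second IGF1R probe, at chr3:44928701-44933280, both on the plus strand, hold in their open reading frame the codons for aspartate, phenylalanine and glycine. That triplet opens the activation loop of a kinase, beside the pocket where many inhibitors bind. It is in capitals below.
PDGFRB A_11_P105051: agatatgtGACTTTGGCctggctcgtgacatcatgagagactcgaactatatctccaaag
IGF1R A_11_P053806: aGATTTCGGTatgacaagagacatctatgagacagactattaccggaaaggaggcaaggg
The letters searched were GATTTTGGN, GATTTCGGN, GACTTTGGN and GACTTCGGN. Of all 43603 probes, 163 (0.374%) hold one of them on the printed strand and 299 (0.686%) on either strand. These were the only 2 of the 19 receptor probes with it in an open frame.

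Probes of the same gene mostly ranked the tumors alike. Against the main probe over the 51 arrays, the Pearson correlation was 0.93 and 0.86 for the EGFR probes A_11_P072691 and A_11_P000002178 (the latter over 50 arrays) and 0.66 for A_11_P0000021478. It was 0.92 for MET, 0.92 for IGF1R and 0.88 and 0.86 for the ERBB3 probes. These 7 pairs of probes had permutation p = 1e-05, the smallest that 100000 permutations can give, and adjusted p = 1.3e-05 over the 9 pairs. The PDGFRB probes tracked each other weakly (r = 0.29, rho = 0.55, adjusted permutation p = 0.0408), as did the AXL probes (r = 0.39, rho = 0.49, adjusted permutation p = 0.00585). Without the 2 tumors farthest from the median, the PDGFRB value was 0.55. For PDGFRB and AXL a result of 1 probe is therefore given with that of the other. The FGFR1 probe carries a second uncertainty, because the files' description names a sequence like FGFR2 for it, while its chromosome, 16, is that of FGFR1 in the reference gene table.

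The first comparison asked which receptors differed between undifferentiated and differentiated MCTs in the reference samples. EGFR had lower means in the undifferentiated tumors on all 4 of its probes, and 2 of these passed the threshold of an adjusted p under 0.01 (limma, Benjamini-Hochberg over all 43603 probes) and a fold of at least 2. No other receptor passed on any probe, and no main probe passed. That is 2 of 19 probes, where 1.85% of all probes passed, and both belong to 1 gene. By gene it is 0 of 10, with 3 main probes (EGFR, ERBB3 and FLT3) at an unadjusted p under 0.05. Shares of all probes at an unadjusted limit were not computed, here or in the later comparisons, so such counts have no background beside them. At an adjusted p under 0.05 with no limit on the fold, 1 main probe passed, that of EGFR, where 8.09% of all probes did. By gene symbol, 699 of 11122 passed as higher and 527 as lower. Of the 10 main probes, 8 had lower and 2 higher means in the undifferentiated tumors, with a median log2 difference of -0.65, against 0.04 over all 11122 gene symbols.

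EGFR, the receptor for epidermal growth factor and amphiregulin, is used mainly by epithelial cells such as keratinocytes. On the main probe, the 5 reference undifferentiated tumors had levels of 7.88 (T9.1), 8.84 (T57.1), 7.81 (T73), 8.34 (T90) and 7.48 (LM0). The 13 differentiated ones ran from 8.30 (T130) to 10.68 (T88) with a median of 9.76. All 5 undifferentiated tumors lay below the differentiated median and 3 lay below the whole differentiated group, but the groups overlapped. The log2 difference was -1.54 (SE 0.36, 2.91-fold lower, limma adjusted p = 0.0141), so the main probe missed the threshold. Without T57.1 or without T130 it passed (limma adjusted p = 0.0086 and 0.00499).

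The called EGFR probes gave larger differences, whose size depended on the background correction. On A_11_P000002178 the undifferentiated levels were 1.63 (T9.1), 4.65 (T57.1), 3.73 (T73), 4.63 (T90) and 1.60 (LM0), against 4.32 to 6.71 with a median of 5.89 in the differentiated tumors. In T9.1 and LM0 this probe was not well above background. The log2 difference was -2.35 (SE 0.50, limma adjusted p = 0.00729). On A_11_P072691 the undifferentiated levels were 4.01 (T9.1, not well above background), 7.30 (T57.1), 5.96 (T73), 6.86 (T90) and 5.87 (LM0). The differentiated tumors ran from 6.80 to 9.03 with a median of 8.33, and the log2 difference was -2.03 (SE 0.45, limma adjusted p = 0.00963). On both probes 3 of the 5 undifferentiated tumors lay below every differentiated one and the groups overlapped. With normexp background correction, which models signal and background and adds an offset, the differences were -0.53 on A_11_P000002178 and -0.94 on A_11_P072691, each under 2-fold, and neither was called (limma adjusted p = 0.0155 and 0.0138).

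The remaining EGFR probe, A_11_P0000021478, was dim, well above background in 27 of the 51 tumors and in 1 of the 5 reference undifferentiated ones. Its levels there were 1.61 (T9.1), 5.76 (T57.1), 3.25 (T73), 2.98 (T90) and 3.76 (LM0), against 1.61 to 5.06 in the differentiated tumors, and its log2 difference was -0.28 (SE 0.62, limma adjusted p = 0.826). T57.1 was the highest of the 5 on all 4 probes.

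**Figure D2:**
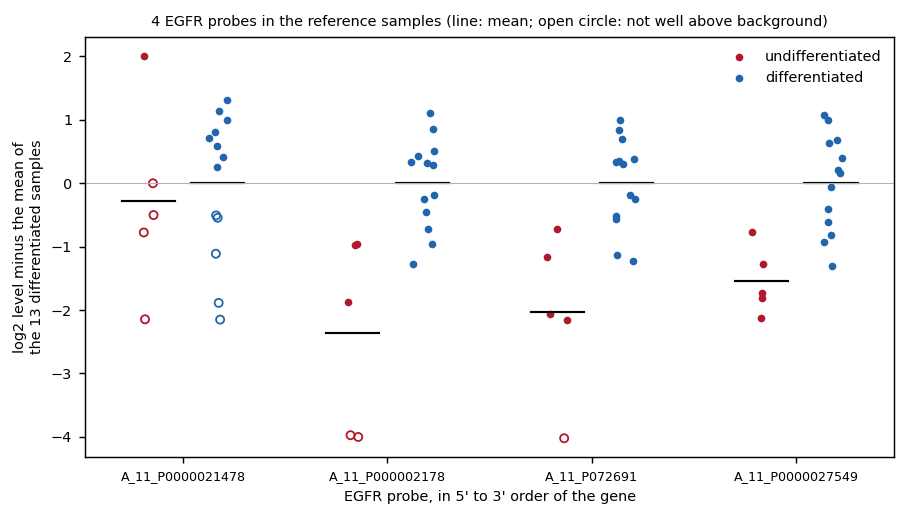
Log2 level of the 4 EGFR probes in the 18 reference samples (5 undifferentiated in red, 13 differentiated in blue), each as the difference from the mean of the differentiated samples on that probe, in 5' to 3' order. Points are tumors, lines are group means and open circles mark tumors where the probe was not well above background. The means of the undifferentiated tumors lie at -0.28, -2.35, -2.03 and -1.54.

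The EGFR calls were near the threshold. Within the 4 scan sessions that held both classes of reference samples (4 undifferentiated and 9 differentiated arrays), the difference was negative in 4 of 4 for the main probe (-2.27 to -0.80), for A_11_P000002178 (-2.69 to -1.31) and for A_11_P072691 (-2.79 to -1.09). With the session as a block in the fit, the log2 difference of A_11_P000002178 was -1.76 (limma adjusted p = 0.0238) and that of A_11_P072691 was -1.87 (0.0156), and neither was called. Both calls also ended with slide as a fixed block (0.222 and 0.133) and with sex as a covariate (0.0127 and 0.0170). With 1 tumor left out at a time, A_11_P000002178 kept its call in 6 of 18 fits (without T48, T57.1, T90, T100, T112 or T130) and A_11_P072691 in 3 of 18 (without T48, T57.1 or T130). The other tumors, left out, ended the call at limma adjusted p values of up to 0.0287 and 0.0276, with log2 differences of -2.70 to -1.94 and -2.36 to -1.53 over all 18.

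Some marker lists of other cells also had means that lay mostly to one side in the reference comparison, in part with ranges that overlapped widely. Of the 9 measured keratinocyte markers of 16 listed, 9 had lower means in the reference undifferentiated tumors (median log2 difference -2.26) and 0 were called. Their mean level was 2.84 to 12.02 (median 3.22) in the undifferentiated tumors and 2.84 to 13.15 (median 11.65) in the differentiated ones. The basal keratin gene KRT5 was well above background in 41 of the 51 tumors and the epidermal regulator TP63 in 4. All 12 fibroblast markers also had lower means (median -0.82, 0 called), with mean levels of 11.60 to 14.28 against 11.30 to 14.37. The eosinophil and neutrophil markers went the other way, 6 of 7 higher with 1 called, at 8.48 to 12.56 against 6.78 to 9.63. The called one was the neutrophil receptor gene CXCR2. The eosinophil receptor genes IL5RA (0.56) and CCR3 (-0.47) went in opposite directions and were not called. Of 13 macrophage and dendritic cell markers 10 were lower and 3 higher (median -0.45), and 1, CSF1R, was called lower. Other lists were mixed with 0 called, namely mast cell (5 higher, 3 lower), endothelial (5 and 5), T cell (4 and 5) and pericyte and smooth muscle markers (2 and 5). All 9 proliferation markers were called higher (median 3.02), at 9.48 to 10.35 against 6.11 to 8.61. The reference classes were chosen in part by the number of mitoses, so this separation is not an independent result. The part of any of these in the EGFR difference was not tested.

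ERBB2 and ERBB3 are the relatives of EGFR, and they pair with it and with each other, ERBB2 without a ligand of its own and ERBB3 with a nearly inactive kinase that needs a partner. ERBB3 had levels of 4.07 (T9.1), 3.55 (T57.1), 4.62 (T73), 5.68 (T90) and 1.81 (LM0) in the reference undifferentiated tumors, where it was well above background in T73 and T90 only. The differentiated tumors ran from 3.46 to 7.27 (median 6.19). All 5 lay below that median, yet the difference did not pass (log2 difference -1.79, SE 0.66, limma adjusted p = 0.103, and -0.52 with normexp background correction), and neither did those of its other probes (-1.38 and -1.28, adjusted p = 0.203 and 0.19), the last of which was well above background in none of the 5. ERBB2 spanned 8.21 to 8.97 against 8.44 to 9.30 and differed by -0.26 (95% interval -0.58 to 0.06, limma adjusted p = 0.316).

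Of the receptors closest to KIT, PDGFRA and PDGFRB bind platelet-derived growth factors, chiefly in fibroblasts and in pericytes. FLT3 is the receptor of dendritic cells and early blood progenitors. FLT3 levels in the reference undifferentiated tumors were 8.82 (T9.1), 5.75 (T57.1), 6.07 (T73), 5.67 (T90) and 4.25 (LM0, not well above background), against 5.92 to 9.38 (median 7.30). T57.1, T90 and LM0 lay below every differentiated tumor and T9.1 lay near the top, and the log2 difference of -1.37 (SE 0.57), or -0.53 with normexp, did not pass (limma adjusted p = 0.154). PDGFRA was at 6.72 (T9.1), 10.67 (T57.1), 7.63 (T73), 8.85 (T90) and 9.66 (LM0), against 8.34 to 11.06 (median 9.64), a log2 difference of -0.99 (SE 0.49, limma adjusted p = 0.234). PDGFRB differed by 0.05 on its main probe and by -0.86 on the second (limma adjusted p = 0.933 and 0.134).

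MET, the receptor of hepatocyte growth factor, FGFR1, a receptor of fibroblast growth factors, IGF1R, the receptor of insulin-like growth factors, and AXL, which binds GAS6, also did not pass in the reference samples. Their log2 differences were -0.08 for MET (95% interval -0.86 to 0.71), -0.88 for FGFR1 (-2.01 to 0.24), 0.05 for IGF1R (-0.68 to 0.79) and -0.42 for AXL (-0.90 to 0.06), with limma adjusted p from 0.277 to 0.946. FGFR1 in the undifferentiated tumors ran from 3.57 in T9.1, where it was not well above background, to 9.23 in T90, the highest FGFR1 level of all 51 tumors. The 5 undifferentiated tumors were thus widely spread. T57.1 was the highest of them for PDGFRA, PDGFRB, EGFR, IGF1R and AXL, and T9.1 the lowest for PDGFRA, FGFR1, IGF1R and AXL but the highest for FLT3 and ERBB2.

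**Figure D3:**
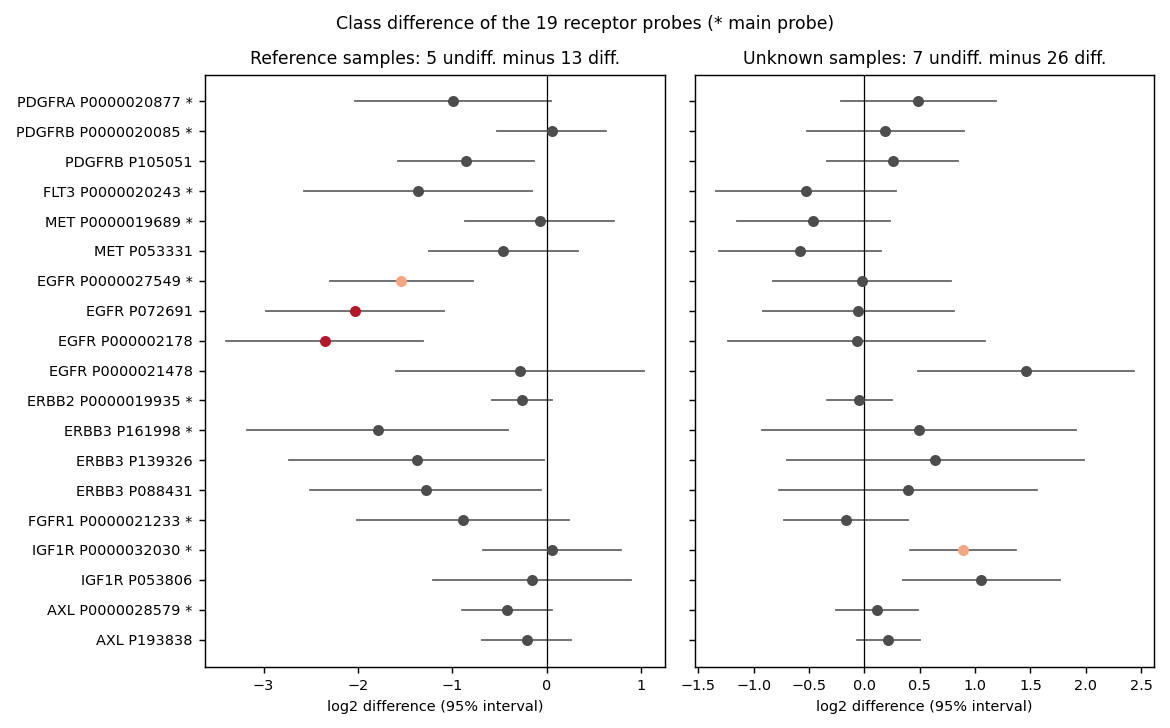
Log2 difference, undifferentiated minus differentiated, of the 19 receptor probes with 95% intervals from limma, in the reference samples (left) and the unknown samples (right). Dark red points are the 2 probes called at adjusted p under 0.01 and 2-fold, light red points have adjusted p between 0.01 and 0.05, grey points lie above that, and an asterisk marks the main probe of a gene.

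The second comparison asked the same of the 33 unknown samples, 7 against 26. IGF1R came nearest to the threshold, with a higher mean in the undifferentiated tumors, and the EGFR means were within their error of each other. No receptor passed the threshold on any of the 19 probes, where 1% of all probes did, and 1 main probe, IGF1R, and 3 probes in all had an unadjusted p under 0.05. The main probes split evenly, 5 with higher and 5 with lower means, and their median log2 difference was 0.04, against -0.01 over all gene symbols.

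IGF1R levels on the main probe were 9.03 (T49), 9.23 (T77), 9.53 (T80), 9.03 (T104), 9.99 (T114.1), 9.28 (T115) and 8.86 (T132) in the unknown undifferentiated tumors. The 26 differentiated ones ran from 7.02 to 9.76 with a median of 8.44. All 7 lay above that median and T114.1 above the whole differentiated group, and the groups overlapped. The log2 difference was 0.89 (SE 0.23, 1.85-fold higher, limma adjusted p = 0.0194), which met neither the 0.01 level nor a 2-fold change. At an adjusted p under 0.05 with no limit on the fold, 5.84% of all probes passed in this comparison. By gene symbol, 552 of 11122 passed as higher and 328 as lower. The second IGF1R probe, A_11_P053806, spanned 6.16 to 7.09 against 2.27 to 7.18, again with all 7 above the differentiated median of 5.54 (log2 difference 1.06, SE 0.35, limma adjusted p = 0.0665, and 0.34 with normexp).

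Within the 4 scan sessions with both classes of unknown samples (7 undifferentiated and 14 differentiated arrays), IGF1R was higher in the undifferentiated tumors in 4 of 4, by 0.61 to 1.22 on the main probe. Without T114.1 the adjusted p of the main probe was 0.0925 and without T80 it was 0.0503, and with the slide as a fixed block it was 0.139. In the reference samples the IGF1R levels of the undifferentiated tumors, 7.35 (T9.1), 9.97 (T57.1), 8.06 (T73), 7.88 (T90) and 9.38 (LM0), lay on both sides of the differentiated median of 8.48. By group median IGF1R ran from the unknown undifferentiated (9.23) through the reference differentiated (8.48) and unknown differentiated (8.44) to the reference undifferentiated tumors (8.06), and the ranges of neighboring groups overlapped throughout. Of the mast cell markers, 8 of 8 measured had lower means in the unknown undifferentiated tumors (median -0.65, 0 called), at mean levels of 10.95 to 13.80 against 11.91 to 14.11. All 9 keratinocyte markers had higher means there (median 2.26, 0 called), at 3.57 to 13.79 against 2.61 to 13.62. Of 7 eosinophil and neutrophil markers 5 were higher and 4 of these were called (S100A9, S100A8, CSF3R and CXCR2, list median 1.84), at 8.74 to 11.70 against 7.01 to 10.57. The lower ones were the eosinophil receptor genes IL5RA (-1.17) and CCR3 (-0.76), neither called. The eosinophil genes EPX, PRG2, RNASE2 and SIGLEC8 were not measured, so the rise is one of neutrophil genes on this list. Of 13 macrophage and dendritic cell markers 4 were higher and 9 lower (median -0.12), and CD14, higher by 1.70 (limma adjusted p = 0.000341), was called. All 9 proliferation markers were higher and 8 were called (median 1.61), at 8.94 to 9.85 against 6.42 to 8.47. The panel that placed these tumors includes CCNB2 and CDC20, which are on this list. The separation by proliferation markers was therefore set in part by how the classes were given. The part of any of these in the IGF1R values was not tested.

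EGFR in the unknown samples ran from 7.40 (T49) to 11.11 (T77) with a median of 9.44 in the undifferentiated and from 7.95 to 11.28 with a median of 9.40 in the differentiated tumors. The log2 difference of the main probe was -0.02 (95% interval -0.83 to 0.78, limma adjusted p = 0.984), and those of the 2 probes called in the reference samples were -0.05 and -0.07. The dim probe A_11_P0000021478 gave 1.46 (SE 0.48, limma adjusted p = 0.0657), and 0.39 with normexp background correction, and was well above background in 6 of 7 undifferentiated and 12 of 26 differentiated tumors. The test of the difference between the reference and the unknown class differences did not pass for any EGFR probe (limma adjusted p = 0.185 to 0.315), so the EGFR difference is not shown to depend on the set of samples. No receptor probe passed that test, in which 0.0963% of all probes had an adjusted p under 0.05. An unadjusted p under 0.05 was found for 10 of the 19 probes. The share of all probes at that limit was not computed, so the count cannot be read as particular to the receptors.

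The other receptors of the unknown samples did not pass either. The log2 differences of the main probes were 0.49 for PDGFRA (95% interval -0.21 to 1.19), 0.19 for PDGFRB (-0.52 to 0.90), -0.53 for FLT3 (-1.34 to 0.29) and -0.46 for MET (-1.15 to 0.23). They were -0.05 for ERBB2 (-0.34 to 0.25), 0.49 for ERBB3 (-0.93 to 1.91), -0.17 for FGFR1 (-0.73 to 0.40) and 0.11 for AXL (-0.26 to 0.48). FLT3 had negative differences in both sets of samples, and over all 51 tumors, 12 against 39 with the set of samples as a covariate, it differed by -0.86 (SE 0.34, limma adjusted p = 0.0772). That pooled fit shares its arrays with the comparisons above. It called 0 of 19 receptor probes, where 2.36% of all probes were called, and 5 of the 19 had an unadjusted p under 0.05.

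KIT itself, the usual target, did not pass in either comparison. The main KIT probe ran from 11.00 (T57.1) to 15.03 (T90) in the reference undifferentiated tumors and from 12.50 to 14.02 in the differentiated ones, a log2 difference of 0.14 (SE 0.43, limma adjusted p = 0.881). In the unknown samples it ran from 9.11 (T77) to 14.78 (T49) and from 12.31 to 14.83, a difference of -1.20 (SE 0.44, limma adjusted p = 0.101, and -0.26 with slide as a fixed block), with 4 of the 7 undifferentiated tumors below every differentiated one. T77, with the lowest KIT level of the 51 tumors, had the highest ERBB3 level (8.06) and the second highest EGFR level (11.11). T57.1, with the lowest KIT level of the reference undifferentiated tumors, had the second highest IGF1R (9.97) and AXL (7.18) levels of all 51.

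The highest tumors were not the same for every receptor. T114.1, an unknown undifferentiated tumor, and T57.1 were each among the 5 highest tumors for 4 of the 10 receptors, both for PDGFRA, IGF1R and AXL, T114.1 also for FGFR1 and T57.1 also for PDGFRB. T77 was among the 5 highest for EGFR, ERBB2 and ERBB3, and the reference differentiated tumor T55 for PDGFRA, FLT3 and AXL. The highest FLT3 level, 9.38 in T55, was 5.34-fold the median of the 51 tumors, and the highest PDGFRB level, 9.49 in T53, was 4.18-fold. The highest ERBB3 level, in T77, was 9.66-fold a median that lies near background, so the size of that fold is uncertain. The highest EGFR level, 11.28 in T81, was 3.84-fold the median, the highest MET level, 9.18 in T135, was 3.37-fold, and the highest PDGFRA level, 11.06 in T55, was 3.40-fold.

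Growth factors and related ligands of these receptors or of their close relatives were read from a list of 25 genes, of which 18 were measured. Not every one of them binds 1 of the 10 receptors. In the reference samples 15 of the 18 had lower means in the undifferentiated tumors, with a median log2 difference of -0.68, and 1 was called. This was GAS6, the ligand of AXL, at 7.94 ± 0.99 (SD, n = 5) against 9.80 ± 0.61 (SD, n = 13), a log2 difference of -1.87 (SE 0.37, 3.64-fold lower, limma adjusted p = 0.00446). The call ended without T9.1 (adjusted p = 0.0157), T73 (0.0115) or LM0 (0.0186), and with the scan session (0.0232) or the slide (0.138) as a fixed block. In the unknown samples 1 ligand was called, AREG (amphiregulin, a ligand of EGFR), with a log2 difference of 4.58 (SE 0.96, limma adjusted p = 0.00349). The probe was well above background in 7 of 7 undifferentiated but in 9 of 26 differentiated tumors, so the size is uncertain, and with normexp background correction the difference was 1.92. The AREG call ended without T114.1 (adjusted p = 0.0249), in the authors' normalized table (3.81, 0.0372), and with the scan session (0.0490) or the slide (0.196) as a fixed block. In the pooled fit 4 ligands were called. AREG (3.59, adjusted p = 0.0018) and NRG1, neuregulin 1, which binds ERBB3 (2.54, adjusted p = 0.000383), were higher. IGF1, the main ligand of IGF1R (-1.41, adjusted p = 0.0065), and PROS1, a relative of GAS6 (-1.18, adjusted p = 0.00755), were lower.

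Leaving out any 1 of 6 tumors ended the IGF1 call (T49, T73, T77, T90, T114.1 or LM0, adjusted p up to 0.0228), and any 1 of 7 ended the PROS1 call (T9.1, T49, T73, T77, T90, T132 or LM0, up to 0.0222). Both also ended with the session as a block (0.0274 for IGF1 and 0.0261 for PROS1) and with sex as a covariate (0.0198 and 0.0165), and that of IGF1 with normexp (0.0105) and slide as a fixed block (0.0175). AREG and NRG1 kept their pooled calls in all 12 fits that left out an undifferentiated tumor, but that of AREG ended in the authors' table (2.91, adjusted p = 0.0248), and with normexp its difference was 1.73. In the unknown samples, where AREG was called, EGFR differed by -0.02, and in the reference samples, where GAS6 was called, AXL differed by -0.42. No test of a ligand against its receptor was made.

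Of 30 other receptor tyrosine kinases, 23 were measured. The background of calls over all gene symbols is that given for the ligands. In the reference samples 16 had lower and 7 higher means, with a median log2 difference of -0.11, and 1 was called. CSF1R, the macrophage receptor of the KIT family, was at 7.23 ± 1.26 (SD, n = 5) against 9.14 ± 0.53 (SD, n = 13), a difference of -1.92 (SE 0.39, 3.77-fold lower, limma adjusted p = 0.00628). The call ended without any 1 of 7 tumors (T9.1, T55, T84, T88, T92, T101 or LM0, adjusted p up to 0.022), and with the session (adjusted p = 0.0686) or the slide (-1.25, 0.266) as a fixed block, sex as a covariate (0.0103) or the authors' table (0.0105). In the unknown samples 16 were higher and 7 lower (median 0.36) and 0 were called, with FLT1 and PTK7 at an adjusted p under 0.05. The pooled fit called FLT1, a receptor of vascular endothelial growth factor, as higher (1.38, adjusted p = 0.00112) and NTRK2, a neurotrophin receptor, as lower (-1.47, adjusted p = 0.0079). FLT1 kept its call in all 12 fits that left out 1 undifferentiated tumor but lost it with normexp, where the difference was 0.78 and so under 2-fold. NTRK2 lost its call without T57.1, T73, T90, T114.1, T115, T132 or LM0 (adjusted p up to 0.0283), and with normexp (0.0119), the session as a block (0.0153) or sex as a covariate (0.0302). Among 26 adaptors and negative regulators that relay or damp receptor signals, 18 were measured and 0 were called in any of the 3 fits, with a median log2 difference of 0.07 in the reference and 0.12 in the unknown samples.

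The levels of the receptors varied together in part. Among the 39 differentiated tumors, 10 of the 45 pairs of main probes had adjusted permutation p under 0.05 by both Pearson and Spearman correlation, 7 of them positive and 3 negative. All these values pool tumors rich and poor in keratinocyte markers, which differed in EGFR and ERBB3 level as given below. They were not computed within those groups. EGFR went with ERBB3 (r = 0.69, rho = 0.66, adjusted permutation p = 0.00045), with ERBB2 (r = 0.46, rho = 0.49) and with IGF1R (r = 0.47, rho = 0.56). AXL went with PDGFRA (r = 0.62, rho = 0.60, adjusted permutation p = 0.00113) and with IGF1R (r = 0.50, rho = 0.50). IGF1R also went with PDGFRA (r = 0.42, rho = 0.49) and ERBB3 (r = 0.42, rho = 0.47). MET was opposed to IGF1R (r = -0.59, rho = -0.59, adjusted permutation p = 0.0015) and AXL (r = -0.49, rho = -0.44), and ERBB3 to FGFR1 (r = -0.41, rho = -0.44).

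Without the 2 tumors farthest from the median, r was 0.67 for EGFR with ERBB3, 0.58 for PDGFRA with AXL and -0.59 for MET with IGF1R. With the mean of each scan session removed, it was 0.68, 0.65 and -0.57. In the 3 sessions of at least 6 differentiated tumors, EGFR with ERBB3 ran from 0.27 to 0.94 and PDGFRA with AXL from 0.59 to 0.82, while MET with IGF1R ran from -0.65 to 0.06. ERBB3 with FGFR1 ran from -0.96 to 0.53 there, and its adjusted permutation p was 0.128 under 75th percentile normalization. Over all 51 tumors EGFR with IGF1R (r = 0.32, adjusted permutation p = 0.0772), ERBB3 with FGFR1 (r = -0.12, 0.59) and ERBB3 with IGF1R (r = 0.23, 0.264) did not pass. In the 26 unknown differentiated tumors alone 3 of the 45 pairs passed.

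The receptors were then set beside the mean levels of marker genes of the cells that a skin biopsy holds, again in the 39 differentiated tumors. The keratinocyte markers split these tumors into 20 with mean levels up to 7.83 and 19 from 10.45 upward, with none between, so their correlations are given within each cluster only. ERBB3 followed them in the upper cluster (r = 0.83, rho = 0.74, adjusted permutation p = 0.0004) and had r = 0.54 in the lower one (adjusted permutation p = 0.0697 by Pearson and 0.0239 by Spearman). ERBB3 levels ran from 4.50 to 7.94 (median 6.99) in the upper and from 1.94 to 5.57 (median 4.27) in the lower cluster. EGFR followed the keratinocyte markers in the upper cluster (r = 0.63, rho = 0.70, adjusted permutation p = 0.0343) and not in the lower (r = -0.16). Without the 2 tumors farthest from the median, the upper-cluster values were 0.64 for ERBB3 and 0.45 for EGFR. These 2 were the only pairs of 20 that passed both tests within a cluster. EGFR had a median of 10.12 in the upper and 9.05 in the lower cluster. The other correlations of EGFR and ERBB3 pool both clusters and were not computed within them. How far the gap between the clusters enters them was not tested.

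Of the 80 pairs of a receptor with one of the other 8 lists, 19 passed both tests (p adjusted over all 90 pairs), 13 positive and 6 negative. These values, too, pool both keratinocyte clusters. PDGFRA followed the fibroblast markers (r = 0.85, rho = 0.88, adjusted permutation p = 0.000225), as did AXL (r = 0.61, rho = 0.66). Both also followed the macrophage and dendritic cell markers (r = 0.57 and 0.56), as did PDGFRB more weakly (r = 0.41). FLT3 followed the T cell markers (r = 0.50, rho = 0.51, adjusted permutation p = 0.00681) and not the macrophage and dendritic cell list (r = 0.09). The dendritic cell genes CLEC9A, XCR1 and ZBTB46 of that list were not measured. It therefore holds mostly macrophage genes, and a link of FLT3 with dendritic cells was not tested by it. EGFR and ERBB3 followed the pericyte and smooth muscle markers (r = 0.53 and 0.63), and IGF1R the endothelial ones (r = 0.56, rho = 0.58), which EGFR, ERBB3 and AXL followed with r of 0.42 to 0.44. Over all 51 tumors EGFR (r = 0.32) and ERBB3 (r = 0.23) did not pass with the endothelial markers (adjusted permutation p = 0.0684 and 0.226).

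The mast cell markers went with 4 of the receptors, in both directions. IGF1R (r = -0.73, rho = -0.75), EGFR (r = -0.68, rho = -0.76) and ERBB3 (r = -0.63, rho = -0.69) fell as the mast cell markers rose, with adjusted permutation p of 0.000225, 0.000225 and 0.00036. MET rose with them (r = 0.59, rho = 0.60, adjusted permutation p = 0.000562) and fell with the pericyte and smooth muscle markers (r = -0.45). KIT, set against the other 7 mast cell markers, had r = 0.55. With session means removed, the values were -0.72 for IGF1R, -0.84 for EGFR, -0.72 for ERBB3 and 0.52 for MET, and in each of the 3 sessions of at least 6 differentiated tumors all 4 kept their sign. FGFR1 and ERBB2 passed with no list. PDGFRB and AXL fell as the proliferation markers rose (r = -0.44 and -0.41) in the differentiated tumors, while over all 51 neither passed (r = -0.089 and -0.22, adjusted permutation p = 0.657 and 0.238). That of AXL did not pass under 75th percentile normalization either (adjusted permutation p = 0.26).

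**Figure D4:**
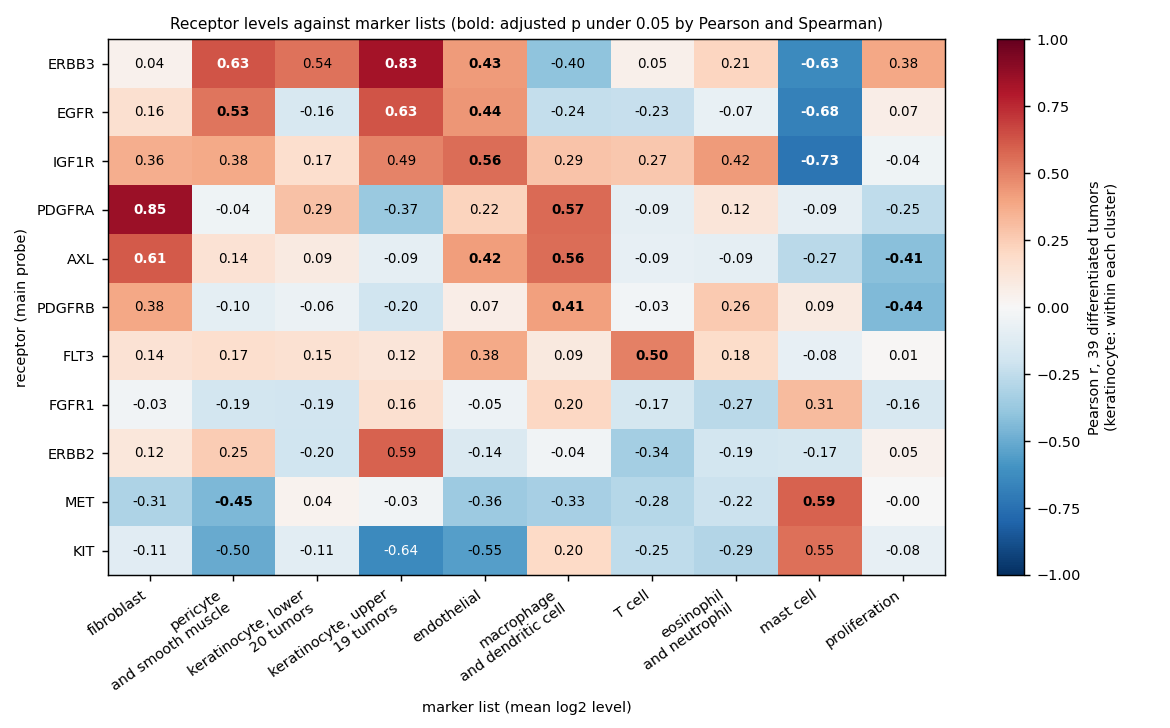
Pearson correlation of each receptor's main probe (rows, with KIT for comparison) with the mean log2 level of each marker list (columns) over the 39 differentiated tumors. The keratinocyte list is shown within its lower cluster of 20 tumors and upper cluster of 19, and bold values passed both tests. The strongest values are 0.85 for PDGFRA with fibroblast markers, 0.83 for ERBB3 with keratinocyte markers in the upper cluster and -0.73 for IGF1R with mast cell markers.

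**Figure D5:**
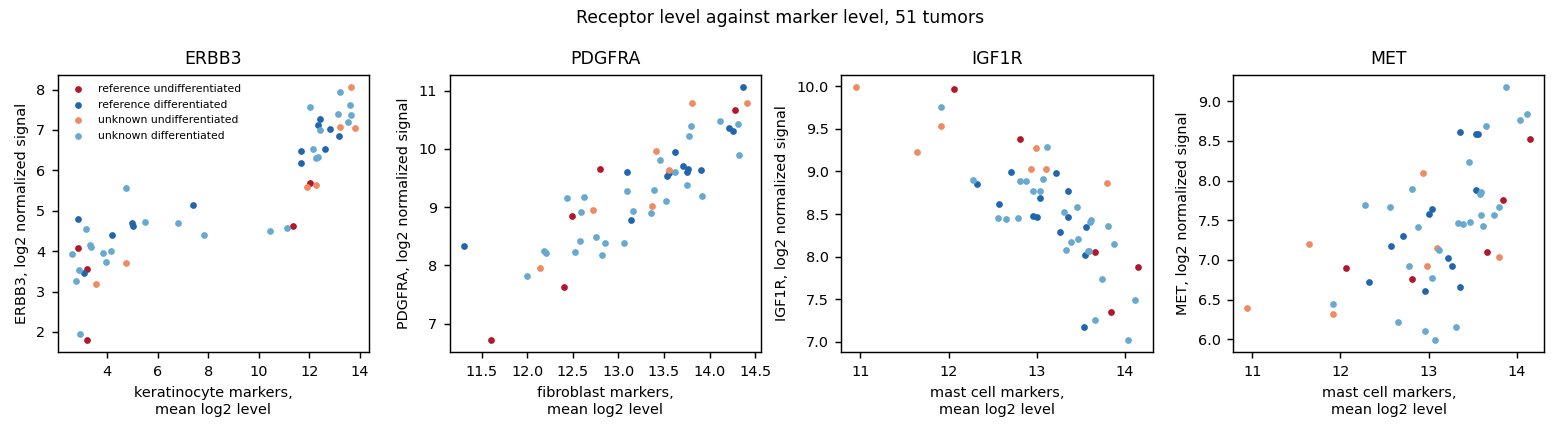
Log2 normalized signal of 4 receptors against the mean log2 level of a marker list in all 51 tumors, colored by class. The keratinocyte axis shows 2 separate clusters of tumors, PDGFRA rises along the fibroblast axis, IGF1R falls along the mast cell axis and MET rises along it.

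The 3 genes most like each receptor were found by Spearman correlation of levels over the 51 tumors among 9566 genes well above background on at least 26 arrays. They were RCN3, FKBP10 and ALDH1L2 for PDGFRA (rho 0.86 to 0.88) and C1QTNF1, COL6A3 and PHLDB1 for AXL (0.80 to 0.82). COL6A3, a collagen VI chain, is also on the fibroblast list. For ERBB3 they were MYO5B, SH3YL1 and S100A14 (0.93 to 0.94), and for EGFR NMT2, LAMA3, a laminin chain of the epidermal basement membrane, and IL17RC (0.81 to 0.84). For FLT3 they were NAPSA, DLA-DOB, a dog MHC class II gene, and CD1B, a lipid antigen-presenting molecule (0.73 to 0.81), and for MET ROBO1, ANKMY2 and COPG2 (0.74 to 0.84). IGF1R was most like KLF7, CELF1 and SPATS2L (0.83 to 0.85), and ERBB2 most like LHX2, SNAP25 and CRAT (0.74 to 0.78). The weakest likeness was that of PDGFRB to GNB3, LGMN and PDPN (0.68 to 0.70) and of FGFR1 to NBL1, NAV1 and PNPLA2 (0.60 to 0.64). These values are descriptions over tumors that share arrays, normalization and class.

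The labels also give sex, breed and age, and no receptor passed a test with any of them. With the class as a covariate, 0 of 19 probes passed at an adjusted p under 0.05 (limma) between 30 female and 19 male dogs (0.0642% of all probes passed), between 9 Boxers and 9 Labrador Retrievers (0.115%), or as a slope over age (0%). In each of these fits 0 of 19 probes had an unadjusted p under 0.05. The log2 differences of the main probes ran from -0.59 (ERBB3) to 0.32 (FLT3) by sex, from -0.10 (FLT3) to 0.56 (EGFR) between the breeds, and from -0.06 (FLT3) to 0.04 (MET) per year of age.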

How the data were processed

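The values are intensities of one-color Agilent canine arrays, 1 tumor per array. The authors amplified and labeled the RNA and read the scans in Agilent Feature Extraction 9.5.1. Its deposited processed signal is a detrended intensity on a linear scale, not normalized between arrays. Per the file headers, local background subtraction was switched off, whereas the paper states that background was subtracted. Another deposited table gives the authors' own quantile-normalized intensity per probe and tumor. The deposited files name no genome build.

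From the processed signal, log2 values were quantile-normalized over 51 arrays in R 4.3.3. Control spots were left out, 2 to 35 spots per array with a feature outlier flag were dropped, and repeated spots were averaged to 43603 probes. Background outlier flags (718 to 3291 spots per array) were not used as a filter, since the headers give no local background subtraction. They would also have removed all 5 reference undifferentiated ERBB2 values.

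Groups were compared with limma 3.58.1, without pairing, over all probes with Benjamini-Hochberg adjustment. The threshold for a call was 2-fold with an adjusted p under 0.01, and an adjusted p under 0.05 for the difference between class differences, sex, breed and age. The reference and unknown comparisons used their own arrays, and the pooled fit took the set of samples as a covariate. No pair of arrays held identical values. Slides (15) and scan sessions (9) were tested as batches.

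Correlations used numpy 2.4.6, scipy 1.17.1 and pandas 2.3.3 with 100000 two-sided permutations, and tumors were split into clusters at a gap of over 15% of a list's range with at least 6 tumors on each side, a choice made after seeing the data. Figures used matplotlib 3.10.9. Gene symbols come from the files, and 3343 probes were renamed through the RefSeq table of the dog assembly UU_Cfam_GSD_1.0, whose coordinates were not used. The fits were tested on simulated data.

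The members, the gene lists and the tests were chosen with earlier results of these data known. Named beside the members were KIT, of each list the called genes (at most 6, by size), and for each receptor the 3 genes of most similar level. Lists of ligands, receptors, adaptors and cell types were written from general knowledge. The alternatives were 75th percentile normalization, normexp background correction (offset 50), the authors' normalized table, outlier spots kept, a filter on dim probes (well above background on at least 5 arrays), slide as a random block, scan session as a fixed block, sex as a covariate, the mean over a gene's probes, an adjusted p under 0.05 and leaving out each tumor. Chosen after seeing the data were slide as a fixed block and background outlier flags set to missing. Each tumor had 1 array, so each p measures the spread between tumors.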

Additional observations from a re-analysis of the deposited data

How the results depend on the processing

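No receptor's main probe was called in the class comparisons under any normalization, background correction, filter, block or covariate tried. One was called in the reference samples (EGFR) and 1 in the unknown samples (IGF1R) with an adjusted p under 0.05 and no limit on the fold, and leaving out 1 tumor gave 0 to 1 in the reference samples. The EGFR calls of A_11_P072691 and A_11_P000002178 ended with normexp (-0.94 and -0.53, adjusted p = 0.0138 and 0.0155), scan session as a block (0.0156 and 0.0238), slide as a fixed block (0.133 and 0.222) and sex as a covariate (0.0170 and 0.0127), and that of A_11_P072691 with the authors' table (0.0102). In the 26 unknown differentiated tumors 3 pairs of receptors and 13 of the 90 pairs of receptor and marker list passed, keratinocytes included.

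Differences that changed sign were uncalled in both settings, and the cause was not tested. In the reference samples PDGFRB (0.05) was -0.034 with 75th percentile normalization, -0.058 with slide as a random block, -0.13 with session as a block, -1.06 with slide as a fixed block and -0.40 as a mean of probes, and IGF1R (0.05) was -0.0097, -0.011, -0.26, -0.63 and -0.051 there. IGF1R probe A_11_P053806 was 0.081 with normexp. MET was 0.015 with background outliers missing, 0.47 with session and 0.19 with slide as fixed blocks, FGFR1 0.36 with slide as a fixed block and KIT -0.010 with sex. In the unknown samples EGFR was 0.00088 with 75th percentile normalization, 0.023 with normexp, 0.30 with background outliers missing, 0.11 with sex and 0.42 as a mean of probes. EGFR probe A_11_P000002178 was 0.015 with normexp and 0.11 with outliers kept. PDGFRB was -0.095 in the authors' table. ERBB2 was 0.053 with background outliers missing and 0.072 with sex, and ERBB3 -0.063 with session and -0.70 with slide as fixed blocks. In the pooled fit ERBB2 was 0.053 with background outliers missing and PDGFRB -0.024 as a mean of probes. The difference between class differences was 0.46 for PDGFRB and 0.021 for FGFR1 in the authors' table. The age slope of A_11_P000002178 was 0.0069 and 0.0034 with 75th percentile normalization and normexp, and that of PDGFRB -0.010 in the authors' table. The reference and between-set fits of ERBB2 could not be made with background outliers missing.

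With 1 tumor left out, reference differences ran from -0.25 to 0.27 for PDGFRB, -0.36 to 0.088 for MET, -0.31 to 0.35 for IGF1R, -0.28 to 0.72 for KIT, -0.86 to 0.18 for EGFR probe A_11_P0000021478 and -0.60 to 0.51 for IGF1R probe A_11_P053806. Unknown differences ran from -0.31 to 0.31 for EGFR, -0.28 to 0.32 and -0.35 to 0.56 for A_11_P072691 and A_11_P000002178, -0.12 to 0.0075 for ERBB2 and -0.045 to 0.21 for AXL, and the pooled one of PDGFRA from -0.26 to 0.14. No paired analysis was possible because the replicate numbers only follow the order of the samples. The 5 undifferentiated reference tumors and the dim probes of ERBB3 and EGFR limit what could be detected.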
